A study of Mus musculus with 15 samples.

Results

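Long intergenic noncoding RNAs (lincRNAs) were measured in primary mouse lung fibroblasts and alveolar type II (ATII) cells by 16251 probes of a 1-colour Agilent array. The probes were taken as every non-control probe whose annotation in the scanner files carries the text lincRNA, with 1 entry per probe name. They made up 29.2% of the 55681 non-control probes on the array. A value on all 15 arrays remained for 16084 of them after spots marked as outliers were left out, and the other 167 are not described further. The 4 groups were fibroblasts with vehicle (n = 4), fibroblasts with BAPN (n = 3), ATII cells with vehicle (n = 4) and ATII cells with BAPN (n = 4). BAPN (β-aminopropionitrile), an irreversible inhibitor of the lysyl oxidases that cross-link collagen and elastin, was given at 1 mM for 24 h, and the vehicle was PBS. The fibroblasts were used after 3 or more passages and had been starved for 24 h, whereas the ATII cells had formed a monolayer over 3 days at an air-liquid interface. Cell type and culture conditions therefore cannot be told apart. Strain, age and sex are not in the labels, nor is it stated that replicates were separate animals or cultures, and the spread behind the p-values may therefore be technical.

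LincRNAs are transcripts that lie between protein-coding genes, are made mostly by RNA polymerase II, and are not translated into long proteins. Some act in the nucleus near the place where they are made, such as XIST, which coats the inactive X chromosome, and NEAT1, the scaffold of paraspeckles. Many are present at low levels and in few cell types, and most of the regions on this array were known only by coordinates when the array was designed.

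The 16251 probes belong to 4622 named regions, each named by a gene or by coordinates and a strand, with a median of 3 probes per region and at most 10. A single probe stood for 690 regions, and 57 probes belonged to 12 lincRNAs that carry a gene name. The named strand was forward for 8199 probes and reverse for 8052. All 16133 probes with a mapped position (mm9) lay on the strand in the region's name, and 1067 of 3555 loci had a region on each strand. The region lengths had a median of 10676 bases and ran from 62 to 7128490 bases. Probes were 60 bases long, with a median GC content of 45% against 41.7% for the other probes. The polyadenylation hexamers AATAAA or ATTAAA, searched on the printed strand only, occurred in 6.27% of the lincRNA probes and 16.7% of the other probes.

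The sequences below are those of the probes on which the results turn, as the scanner files give them, 5′ to 3′ on the strand of the transcript, with any AATAAA or ATTAAA in capitals. The 5 probes of HOTAIR, a lincRNA of the HoxC cluster, are shown because the fourth in this list was well above background on all 15 arrays, the third on 1 array and the other 3 on none.
HOTAIR, chr15:102774511-102774570, reverse: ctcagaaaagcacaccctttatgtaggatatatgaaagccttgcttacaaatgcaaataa
HOTAIR, chr15:102774571-102774630, reverse: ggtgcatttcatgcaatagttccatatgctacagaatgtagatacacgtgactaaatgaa
HOTAIR, chr15:102774643-102774702, reverse: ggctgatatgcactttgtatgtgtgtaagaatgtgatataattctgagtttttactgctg
HOTAIR, chr15:102774847-102774906, reverse: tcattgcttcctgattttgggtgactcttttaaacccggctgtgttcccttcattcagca
HOTAIR, chr15:102775005-102775064, reverse: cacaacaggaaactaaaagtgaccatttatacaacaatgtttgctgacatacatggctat
A probe each of NEAT1, NEAT2 (also called Malat1), H19 and TUG1 is shown because these lincRNAs differed between the cell types with every probe.
NEAT1, chr19:5842594-5842653, reverse: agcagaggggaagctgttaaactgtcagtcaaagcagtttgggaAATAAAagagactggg
NEAT2, chr19:5795713-5795772, reverse: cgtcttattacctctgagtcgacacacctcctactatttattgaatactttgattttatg
H19, chr7:149762113-149762172, reverse: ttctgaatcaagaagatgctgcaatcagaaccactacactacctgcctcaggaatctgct
TUG1, chr11:3540323-3540382, reverse: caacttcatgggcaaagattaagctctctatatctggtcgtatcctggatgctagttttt
The next 6 probes showed large differences between the cell types, the first 3 higher and the last 3 lower in ATII cells.
chr8:27129927-27137444_R, probe chr8:27131809-27131868: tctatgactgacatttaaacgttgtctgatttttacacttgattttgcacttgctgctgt
chr19:60220577-60238494_F, probe chr19:60238435-60238494: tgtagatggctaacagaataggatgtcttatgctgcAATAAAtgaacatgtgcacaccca
chr10:62267317-62269871_R, probe chr10:62267723-62267782: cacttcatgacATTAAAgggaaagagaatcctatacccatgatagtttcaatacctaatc
chr19:4994325-4994537_R, probe chr19:4994327-4994386: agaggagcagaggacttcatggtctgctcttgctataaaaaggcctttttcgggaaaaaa
chr19:4991356-4993113_R, probe chr19:4991455-4991514: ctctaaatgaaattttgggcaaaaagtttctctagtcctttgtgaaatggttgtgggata
chr12:15735906-15798506_R, probe chr12:15796952-15797011: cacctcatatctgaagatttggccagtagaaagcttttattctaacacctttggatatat
The last probe had the narrowest range over all 15 arrays.
chr14:77006215-77063293_R, probe chr14:77035379-77035438: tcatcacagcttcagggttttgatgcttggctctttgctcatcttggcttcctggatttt

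The arrays came from 2 slides, with 2 arrays of each vehicle group on each. Of the fibroblast BAPN arrays 1 lay on slide 1 and 2 on slide 2, and of the ATII BAPN arrays 3 lay on slide 1 and 1 on slide 2. Between 65.2% and 71.2% of non-control spots on an array were well above background, and no spot was saturated. All 7 epithelial marker genes and 6 of the 8 ATII marker genes tested were higher in the ATII cultures, and 5 of 10 fibroblast marker genes were higher in the fibroblasts. The surfactant genes Sftpb and Sftpc were well above background on all 4 ATII vehicle arrays and on no fibroblast vehicle array, whereas the ATII marker Slc34a2 was above it on no vehicle array. The macrophage and leukocyte markers measured, 9 of 9, were lower in the ATII cultures than in the fibroblasts, and none was at background on the fibroblast vehicle arrays.

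Fewer lincRNA probes than other probes gave signal in every sample. Between 51.4% and 61.5% of the lincRNA probes were well above background on an array, against 69.4% to 74.7% of the other probes. The share was 56.8% ± 4.46 (SD, n = 4) in vehicle fibroblasts, 58.0% ± 2.62 (SD, n = 3) in BAPN fibroblasts, 55.1% ± 1.11 (SD, n = 4) in vehicle ATII cells and 54.6% ± 3.92 (SD, n = 4) in BAPN ATII cells. The groups overlapped. A two-sided exact permutation test gave p = 0.486 for ATII cells against fibroblasts with vehicle (n = 4 and 4) and p = 0.857 for BAPN in ATII cells. The exact permutation p was 0.686 for BAPN in fibroblasts, where 4 against 3 arrays cannot go below 0.0571. The direction between cell types turned with the measure of detection. Counted as above the 99th percentile of the negative controls, the share was higher in ATII cells by 17.5 points with vehicle (exact permutation p = 0.0571), against -1.68 points by the scanner flag. By that measure BAPN gave 17.02 points in fibroblasts (exact permutation p = 0.114), against 1.19 by the flag, and -4.12 points in ATII cells (exact permutation p = 0.457), against -0.50. The other probes also differed by that measure, so the shift was not particular to lincRNA probes. Their share ran from 61.6% to 73.8% over the vehicle fibroblast arrays and from 75.4% to 80.7% over the vehicle ATII arrays. With BAPN it ran from 69.8% to 82.3% in fibroblasts and from 68.3% to 81.6% in ATII cells.

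**Figure D1:**
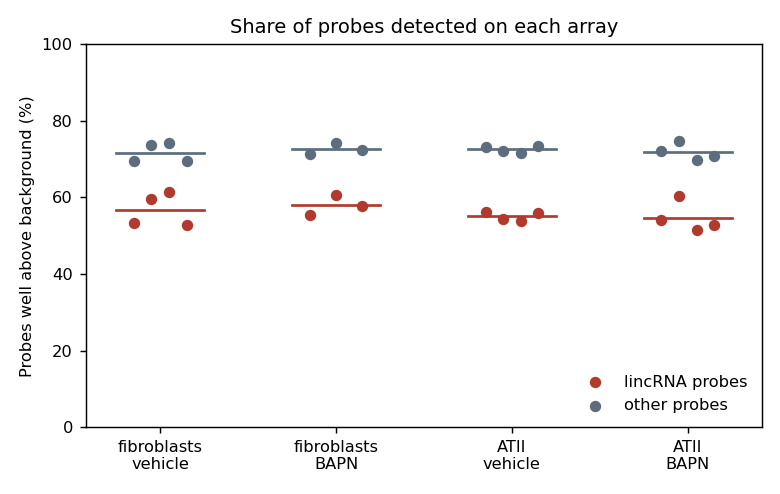
Share of probes well above background (%, vertical axis) on each array, by group, for lincRNA probes (red) and other non-control probes (grey); lines are group means. Each array lies between 51.4% and 61.5% for lincRNA probes and between 69.4% and 74.7% for the others, and the 4 groups overlap.

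A total of 5968 lincRNA probes (37.1%) were well above background on all 15 arrays and 3585 (22.3%) on none, against 60.3% and 14.5% of the other probes. Signal on every array of 1 cell type and no array of the other was rare. With vehicle, 71 lincRNA probes (0.44%) were detected on all 4 fibroblast arrays and no ATII array. On all 4 ATII arrays and no fibroblast array 24 (0.15%) were detected. Among the other probes these numbers were 134 (0.34%) and 372 (0.95%). Detection followed the base composition of the probe. At a GC content of up to 35%, 19.9% of the lincRNA probes were above background on all 15 arrays, and above 55% GC 66.2% were. The other probes went from 54.3% to 76.5% over the same classes.

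Taken by region, detection was more common. At least 1 probe was above background on all 15 arrays for 2993 of 4619 regions with a complete probe (64.8%), no probe was above it on any array for 262, and every probe was above it on every array for 757. In 1181 regions, 1 probe gave signal on all 15 arrays and another on none, as HOTAIR did. Of the 1067 loci with a region on each strand, both strands had a probe above background on all 4 vehicle arrays of the cell type at 724 loci in fibroblasts and 741 in ATII cells. Neither strand had such a probe at 56 loci in fibroblasts and 55 in ATII cells.

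Levels are given as log2 of the processed signal minus the 75th percentile of the same array, so that 0 is that percentile, and they are compared between groups and never between probes. Testing took in the probes whose signal exceeded background by the scanner software's flag on 3 or more arrays in the groups being compared. A probe is called higher or lower at a Benjamini-Hochberg adjusted p under 0.05 in limma, adjusted over all probes tested.

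Among lincRNA probes, differences between the cell types lay mostly on the fibroblast side. With vehicle, 359 of 9678 tested lincRNA probes (3.71%) were higher in ATII cells than in fibroblasts, and 1651 (17.1%) were lower. Over all 39078 probes tested the shares were 14.9% higher and 18.5% lower. The lincRNA probes thus had a share of lower calls near that of all probes and a share of higher calls below it. Of the higher calls 113 were at least 2-fold, and of the lower calls 864. Over all probes, 2284 of the 5836 higher and 3296 of the 7245 lower calls were at least 2-fold. The median log2 difference was -0.27 over the lincRNA probes, of which 20.7% lay above 0, and -0.08 over the other probes. Quantile scaling, which moved the median difference of all probes from -0.14 to -0.01, gave 513 higher and 1192 lower lincRNA probes, and the authors' deposited table of normalized values gave 505 and 1200. Because the RNA came from whole cultures, a smaller share of cells that make a transcript and less of it per cell cannot be told apart. The summed log2 level of the macrophage and leukocyte markers ran from 6.09 to 6.34 over the vehicle fibroblast arrays and from 4.54 to 5.35 over the vehicle ATII arrays. The part of such cells in the lincRNA differences was not tested.

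**Figure D2:**
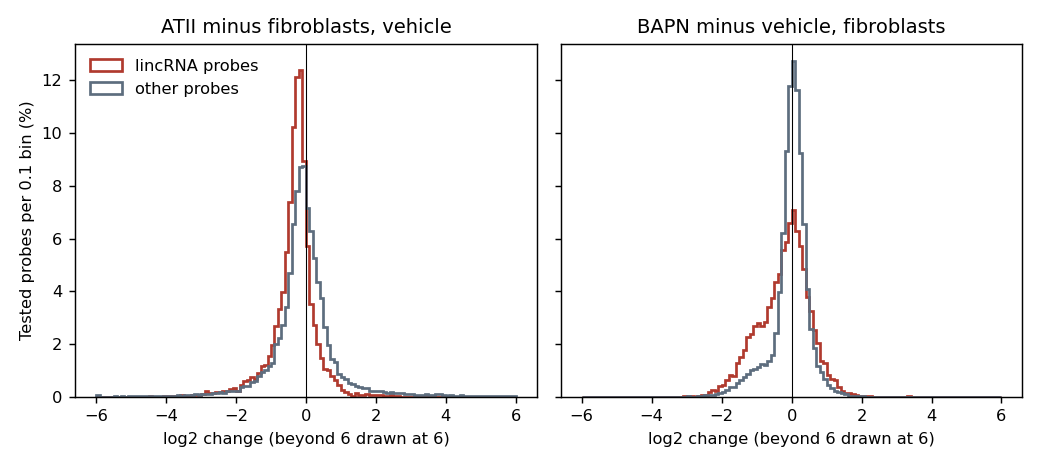
Distribution of log2 differences (horizontal axis; values beyond 6 drawn at 6) over tested lincRNA probes (red) and other probes (grey), as percent of probes per bin, for ATII minus fibroblasts with vehicle (left) and BAPN minus vehicle in fibroblasts (right). On the left the lincRNA probes have a median of -0.27 against -0.08 for the others; on the right they have a second shoulder below 0, where 1776 probes passed the test.

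The groups did not overlap for 305 of the 359 higher and 1408 of the 1651 lower probes. This was not counted over all probes, so it describes the calls and is no trait of lincRNA probes. For 32 of the higher and 162 of the lower probes, no array of the lower group rose well above background, so their fold changes are bounds. After a correction for spot position within classes of level, chosen after the data were seen, 335 of the higher and 1094 of the lower probes still passed. With calls that arose only after the correction, that fit gave 521 higher and 1185 lower lincRNA probes.

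Among the 12 lincRNAs with gene names, H19 and TUG1 were higher in ATII cells, and NEAT1, NEAT2 and most of the XIST probes were lower. Of their 57 probes, 36 were tested, 10 were higher and 14 lower in ATII cells with vehicle, and 12 were above background on no array. Among all probes tested 14.9% were higher and 18.5% lower. NEAT1 and NEAT2, both nuclear RNAs (the second is retained in nuclear speckles), were lower in ATII cells with all 8 of their probes. The NEAT1 probe shown above had levels of 3.85, 3.87, 3.58 and 3.16 on the vehicle fibroblast arrays and 1.61, 1.70, 1.92 and 1.89 on the vehicle ATII arrays. The groups did not overlap, and the difference was -1.84 ± 0.29 (SE), 3.57-fold, with a limma adjusted p of 0.000240. Its levels with BAPN were 3.69, 3.48 and 2.84 in fibroblasts and 1.14, 2.60, 2.45 and 2.07 in ATII cells. The 5 NEAT1 probes differed by -1.80 to -1.88 and the 3 NEAT2 probes by -1.61 to -1.86. The NEAT2 probe shown had 2.45, 2.19, 2.25 and 1.84 in vehicle fibroblasts and 0.29, 0.79, 0.39 and 0.49 in vehicle ATII cells, again without overlap.

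H19, an imprinted lincRNA expressed in the fetus and host of a microRNA, was higher in ATII cells with all 5 probes, by 1.40 to 2.41 on the log2 scale (2.64-fold to 5.32-fold). Its probe shown above read -3.90, -4.22, -3.79 and -4.53 in vehicle fibroblasts and -2.66, -2.45, -1.76 and -1.23 in vehicle ATII cells. Every ATII array was above every fibroblast array, with a difference of 2.09 ± 0.39 (SE) and a limma adjusted p of 0.000968. With BAPN, 3 of the 5 H19 probes passed in the same comparison. TUG1, a lincRNA first described in the retina, was higher with all 5 probes, by 0.69 to 0.95. For its probe shown, the vehicle fibroblast arrays had 1.02, 1.16, 0.98 and 0.49 and the vehicle ATII arrays 1.59, 1.69, 1.69 and 1.88. These groups did not overlap, but with BAPN 1 of the 5 TUG1 probes passed.

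XIST was above background on all 15 arrays with all 5 probes and was lower in ATII cells with 4 of them, by -0.52 to -0.62. The fifth differed by -0.48 with a limma adjusted p of 0.0543. TSIX, its antisense RNA, had no probe that could be tested. BRN1-A was lower with 2 of 4 probes, but these differed by -1.71 ± 0.57 (SE) and -0.54 ± 0.17 (SE), and the other 2 by -1.02 and -0.19. The probe with -1.71 was above background on 2 fibroblast and 1 ATII array with vehicle, and its limma adjusted p of 0.0331 became 0.0648 with the replicate number as a block. No probe passed for KCNQ1ot1 (2 tested), an imprinted antisense RNA of the Kcnq1 gene, for NRON (2 tested), a repressor of the transcription factor NFAT, for PINC (3 tested), for HOTAIR (1 tested) or for lincP21 (1 tested), a p53 target.

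**Figure D3:**
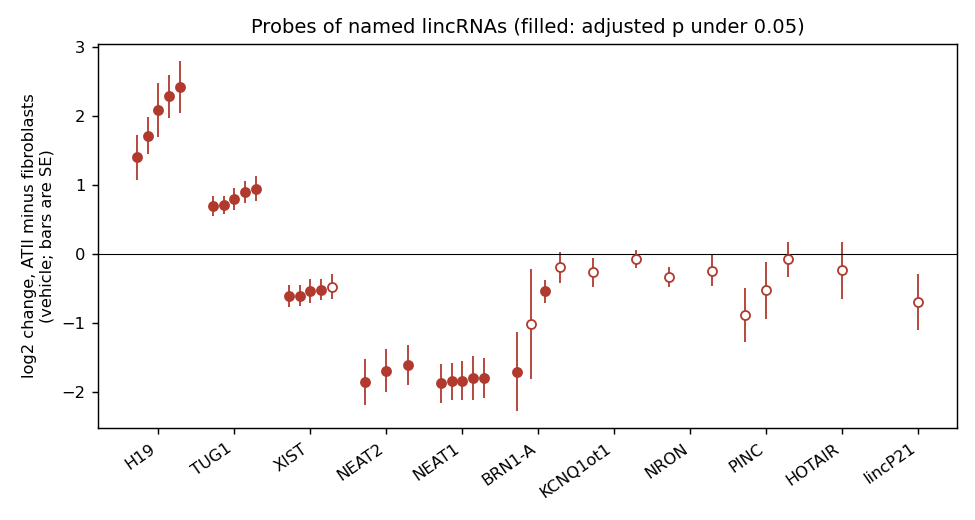
Log2 difference, ATII minus fibroblasts with vehicle (vertical axis), for each tested probe of the named lincRNAs; bars are the fit's standard error and filled points have a limma adjusted p under 0.05. The probes of H19 and TUG1 lie above 0 and those of NEAT1 and NEAT2 between -1.61 and -1.88.

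Lower levels in ATII cells were found at each tested lincRNA probe from NEAT2 to NEAT1 on chromosome 19, a stretch chosen after its values were seen and with no probe between 6.55 and 38.8 kb from the first NEAT2 probe. It holds 19 reverse-strand lincRNA probes in 6 named regions. Of these regions, chr19:5798135-5800557_R and chr19:5801802-5802597_R lie within the coordinates of NEAT2, and chr19:5771425-5848475_R spans both NEAT2 and NEAT1. The 6 are therefore not separate transcripts by position. All 18 probes that could be tested were lower in ATII cells, by -1.61 to -4.00 (3.06-fold to 15.9-fold, largest limma adjusted p 0.00168), and the groups did not overlap for any of them. The 3 probes of chr19:5798135-5800557_R differed by -2.53 to -2.64 and those of chr19:5801802-5802597_R by -2.20 to -2.27. The largest differences were those of the 3 probes of chr19:5834117-5835940_R, between NEAT2 and NEAT1 and about 39 kb from the first NEAT2 probe. Its probe at chr19:5834543-5834602 had 3.40, 3.14, 2.61 and 0.98 in vehicle fibroblasts and -2.56, -1.21, -1.60 and -0.48 in vehicle ATII cells. The fibroblast array of replicate 4 was the lowest of its group, and the difference was -4.00 ± 0.79 (SE). With BAPN all 18 probes were again lower in ATII cells. BAPN itself moved them by -0.44 to 0.62 in fibroblasts and by -0.20 to 1.02 in ATII cells, and no probe of the stretch passed that test (limma, smallest adjusted p in fibroblasts 0.409).

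Outside these genes, 9 regions named by coordinates, together with an H19 probe, made up the 10 named rises in ATII cells. For 6 of the 10 probes no vehicle fibroblast array was well above background, so that their folds are bounds and the 10 have no measured order. The probe of chr8:27129927-27137444_R read -7.17, -7.81, -7.70 and -7.43 on the vehicle fibroblast arrays, none of them well above background, and -2.88, -3.61, -4.46 and -3.83 on the vehicle ATII arrays. The ATII level exceeded that of fibroblasts at least 2.97-fold (limma adjusted p 0.000387), while the region's other probe was lower by -0.61. "At least" is computed here and below from the mean of the brighter group against a floor for the dimmer group, which is per array the lowest signal among probes well above background or the probe's own signal if that is higher. With BAPN, ATII replicate 4 read -7.21 at this probe, near the fibroblast values, and the other 3 ATII arrays read -3.16, -4.11 and -4.49.

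In chr3:87757295-87774970_F, 4 of 5 probes were higher, by up to 3.10 ± 0.54 (SE), and the fifth differed by 0.06 (limma adjusted p 0.812). The probe with 3.10, which has no mapped position, had -1.63, -2.45, -1.97 and -1.94 in vehicle fibroblasts. In vehicle ATII cells it had -0.26, 0.71, 1.49 and 2.46, which spread widely but did not overlap the fibroblasts. The nearest gene, Crabp2, which binds retinoic acid, lay 0.029 kb from the region on the same strand and was higher in ATII cells by 2.48 ± 0.55 (SE). All 5 probes of chr13:15947521-15999246_F were higher, by 1.19 to 2.42. Its probe with the largest difference had -0.90, -0.54, -0.09 and -1.22 in vehicle fibroblasts and 1.52, 1.66, 1.97 and 1.76 in vehicle ATII cells, a difference of 2.42 ± 0.23 (SE) with a limma adjusted p of 3.0e-06. The nearest gene, 119 kb away, was Inhba, a subunit of activin, which was higher by 1.02 ± 0.11 (SE).

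All 3 probes of chr10:62267317-62269871_R were higher, and the one shown above, with no vehicle fibroblast array well above background, was at least 1.49-fold higher. In chr19:60220577-60238494_F 2 of 3 probes were higher, by up to 2.79 ± 0.95 (SE) at a probe above background on 2 of the 4 vehicle fibroblast arrays. The latter probe read -3.73, -7.84, -6.03 and -3.54 in vehicle fibroblasts against -2.64, -2.40, -2.55 and -2.40 in vehicle ATII cells, so that the fibroblast arrays spread over more than the difference itself (limma adjusted p 0.0363). The other regions were chr18:35204950-35216650_R, chr10:18036490-18059965_F, chr13:114106455-114118105_F and chr13:70815593-70820844_R. The named probe of each was well above background on no vehicle fibroblast array, and the bounds on these folds ran from 1.19 to 2.09. In chr13:70815593-70820844_R 2 of the 3 probes were above background on all 15 arrays, and 2 of 3 were higher. Among the named rises, nearest genes that did not pass were Hook3 (chr8:27129927-27137444_R, -0.06), Tet1 (chr10:62267317-62269871_R, -0.09), D19Ertd737e (chr19:60220577-60238494_F, -0.11), Ccdc28a (chr10:18036490-18059965_F, 0.22), Esm1 (chr13:114106455-114118105_F, -0.29) and Mrpl23 (H19, 0.26). Hspa9, nearest to chr18:35204950-35216650_R, was higher by 0.68, and Adamts16, nearest to chr13:70815593-70820844_R, by 4.77.

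Among the 10 named falls were probes beside Npas4, an activity-induced transcription factor. A probe of chr19:4991356-4993113_R had -0.24, 0.35, -0.45 and -1.18 in vehicle fibroblasts and -4.69, -4.92, -4.65 and -5.00 in vehicle ATII cells, well apart. The difference was -4.43 ± 0.29 (SE), 21.6-fold, with a limma adjusted p of 7.4e-08. Of the region's 3 probes 2 were lower, and the brightest differed by -0.46 (limma adjusted p 0.0818). In chr19:4994325-4994537_R all 3 probes were lower, and its named probe was above background on no vehicle ATII array, at least 8.58-fold lower. That probe read -2.52, -1.81, -2.37 and -3.21 in vehicle fibroblasts. Npas4 itself lay 6.94 kb from the first region and 9.91 kb from the second, on the same strand, and was lower in ATII cells by -3.95 ± 0.21 (SE).

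The 3 probes of chr12:15735906-15798506_R that could be tested were all lower in ATII cells, the one shown above by at least 4.52-fold. The smallest of the 3 differences was -0.61 (limma adjusted p 0.0239). The probe shown read -3.41, -3.10, -3.34 and -3.77 in vehicle fibroblasts. In vehicle ATII cells it read -7.50, -7.48, -7.52 and -7.55, none of these well above background. The gene 0.503 kb away on the same strand, Trib2, a pseudokinase gene, was lower by -1.94 ± 0.14 (SE). In chr1:175653557-175671940_R, which overlaps the gene AI607873, 2 of 3 probes were lower, 1 of them by at least 7.81-fold, and AI607873 was lower by -3.31 ± 0.41 (SE). A pair of regions on chromosome 7, chr7:69117827-69127242_R and chr7:69088784-69089906_R, were lower with all 3 probes each, by at least 5.28-fold and 5.55-fold at the named probes. The nearest gene to both, Ndn, an imprinted gene, was lower by -0.81 ± 0.19 (SE) at 367 kb and 404 kb. All 3 probes of chrX:65756325-65757543_F and of chr6:31078802-31079644_R were lower, by -4.03 at the named probe of the first, above background on 1 of the 4 vehicle ATII arrays, and by -3.82 at that of the second, while 2 of 5 probes of chr1:92412246-92423471_F were lower. The nearest genes of these regions in turn, Fmr1 (-0.18), Mkln1 (0.02) and Cops8 (0.12), did not pass. Nor did Frmd8 (-0.11), nearest to chr19:5834117-5835940_R. All 10 named falls kept their direction and passed again with BAPN, but not all of the named rises passed. With BAPN the named probe of chr10:62267317-62269871_R differed by 0.53 (limma adjusted p 0.413), with overlapping groups. That of chr19:60220577-60238494_F differed by 2.66 (limma adjusted p 0.0658). The named probes of chr8:27129927-27137444_R and chr3:87757295-87774970_F passed again.

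Regions and their nearest genes were compared by the brightest tested probe of each. Over all pairs, whether or not either passed, the differences lay on the same side of 0 for 1608 of 3146 pairs within 100 kb (51.1%). Within 10 kb this share was 52.9% and between 10 and 100 kb 50.1%, against 54.3% for pairs of genes within 100 kb and 52.6% within 10 kb. The match was more frequent among the pairs in which both passed. Within 100 kb, both the region and its nearest gene passed the test for 277 pairs, and 189 of these (68.2%) had the same direction. Within 10 kb this held for 97 of 123 pairs (78.9%), for 73 of 87 on the same strand (83.9%) and for 24 of 36 on opposite strands (66.7%). Between 10 and 100 kb it held for 92 of 154 (59.7%). For pairs of genes that both passed the shares were 60.4% within 100 kb and 56.2% within 10 kb. These are descriptions with no test, and a probe on the same strand as a close gene can lie in an unannotated part of that gene's transcript, which was not tested.

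Probes of a region often went the same way. Of 2634 regions with at least 2 tested probes, all probes of 1728 (65.6%) lay on the same side of 0, against 71.9% of other genes. Restricted to probes well above background on every vehicle array, the share was 72.4%. Of 951 such regions with at least 1 probe past the test, 467 had at least 2, and 18 had probes past it in both directions. Probes of a region share a target and are not independent. The 5 regions with the most calls were all lower in ATII cells. In chr4:129497990-129515290_F 10 of 10 probes were lower, with a median of -1.21, and the medians of its probes were -1.49, -1.88, -1.82 and -2.17 on the vehicle fibroblast arrays against -3.07, -2.72, -2.80 and -2.83 on the vehicle ATII arrays. These did not overlap. In chr7:99879368-99889978_R 9 of 10 were lower (median -1.45), in chr17:26911397-26917047_F 9 of 10 (median -0.58), in chrX:90997595-91009570_R 8 of 10 (median -0.77) and in chr2:157361470-157379813_R 7 of 9 tested (median -1.33).

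Between ATII cells and fibroblasts both treated with BAPN, 790 of 9612 tested lincRNA probes (8.22%) were higher and 1170 (12.2%) lower, against 14.1% and 16.9% of all probes. The median difference was 0.03. Columns 83 to 164 of the array held 48.8% of the tested lincRNA probes and 62.0% of these calls. Over all probes they held 48.9% of those tested and 54.3% of the calls. Tested alone, columns 83 to 164 gave 645 higher and 663 lower lincRNA probes, and columns 1 to 82 gave 191 and 510. Without ATII replicate 4, the only BAPN ATII array on slide 2, the numbers became 1796 higher and 1204 lower. A total of 1104 probes passed in both cell type comparisons, 166 of them higher with vehicle and 938 lower, and 1076 had the same direction in both. These 1104 were 54.9% of the calls with vehicle and 56.3% of those with BAPN.

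Among lncRNA genes measured by probes outside the lincRNA set, the direction was mixed. Of 56 listed genes 23 were on the array under their names and 21 were tested with vehicle, 5 higher and 9 lower in ATII cells. Among all probes tested the shares were 14.9% higher and 18.5% lower. H19 (2.50 ± 0.31, SE), Tug1 (0.91 ± 0.21, SE), the snoRNA hosts Snhg1 (0.55) and Snhg5 (0.74), and Ptprv (1.25) were higher. Malat1 (-1.69 ± 0.29, SE) and Neat1 (-1.70 ± 0.27, SE) were lower, as the lincRNA probes of the same transcripts were. Meg3 (-1.82) and Mirg (-1.49), both of the imprinted Dlk1-Dio3 cluster, Dnm3os (-1.62), Kcnq1ot1 (-1.10), Pvt1 (-0.99), Peg13 (-0.35) and Sox2ot (-1.92) were also lower. With the replicate number as a block the limma adjusted p became 0.0551 for Peg13 and 0.0547 for Sox2ot. For Kcnq1ot1 this differs from the 2 lincRNA probes of that name, which had -0.07 and -0.27 and did not pass.

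In fibroblasts, BAPN was compared with vehicle, and over both slides nearly all calls were lower. On either slide alone, and after the correction for spot position within classes of level, that was not so. Of 9811 tested lincRNA probes 57 (0.581%) were higher and 1776 (18.1%) lower with BAPN. Over all 38720 probes tested, 1.95% were higher and 10.5% lower. Of these lincRNA calls, 18 of the higher and 1125 of the lower were at least 2-fold. Over all probes, 80 of 755 higher and 2513 of 4066 lower calls were. The median difference of all tested lincRNA probes was -0.13 against 0.02 for the other probes. The calls were not spread evenly over the array. Of the 1776 lower probes 1713 lay in array columns 83 to 164. Those columns held 50.9% of the tested lincRNA probes and 95.5% of the lincRNA calls. Among the other probes the same columns held 49.7% of those tested and 93.1% of the calls. The skew was therefore not particular to lincRNA probes. For lincRNA probes in columns 1 to 82 the median difference was 0.14, with 63 lower and 19 higher. In columns 83 to 164 it was -0.61. In the comparison of cell types with vehicle, 52.8% of the calls and 53.2% of the tested probes lay in columns 83 to 164.

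The pattern over columns was present on slide 2 alone. On slide 2 the median BAPN difference of lincRNA probes in fibroblasts was 0.45 in columns 1 to 82 and -0.72 in columns 83 to 164. On slide 1, which holds 1 BAPN fibroblast array, it was -0.40 and -0.41. The slide 2 arrays of BAPN fibroblasts, replicates 2 and 4, were higher on the left side than on the right relative to the mean of all arrays, and the vehicle fibroblast arrays of slide 2 were lower on the left. After the correction for spot position within classes of level, 524 of the 1776 lower and 29 of the 57 higher probes still passed. With calls that arose only after the correction, that fit gave 186 higher and 549 lower lincRNA probes. With columns 1 to 82 tested alone, limma called 0 of 4818 lincRNA probes, with 451 at an unadjusted p under 0.05 and a smallest adjusted p of 0.287. With slide 1 alone it called 62 higher and 63 lower, and with slide 2 alone 1212 higher and 2151 lower. Without BAPN replicate 2, 30 were higher and 494 lower. Without BAPN replicate 4 the numbers were 25 and 789, without vehicle replicate 2 they were 15 and 916, and without vehicle replicate 4 they were 19 and 912. The part of spot position in single calls was not tested beyond these values.

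**Figure D4:**
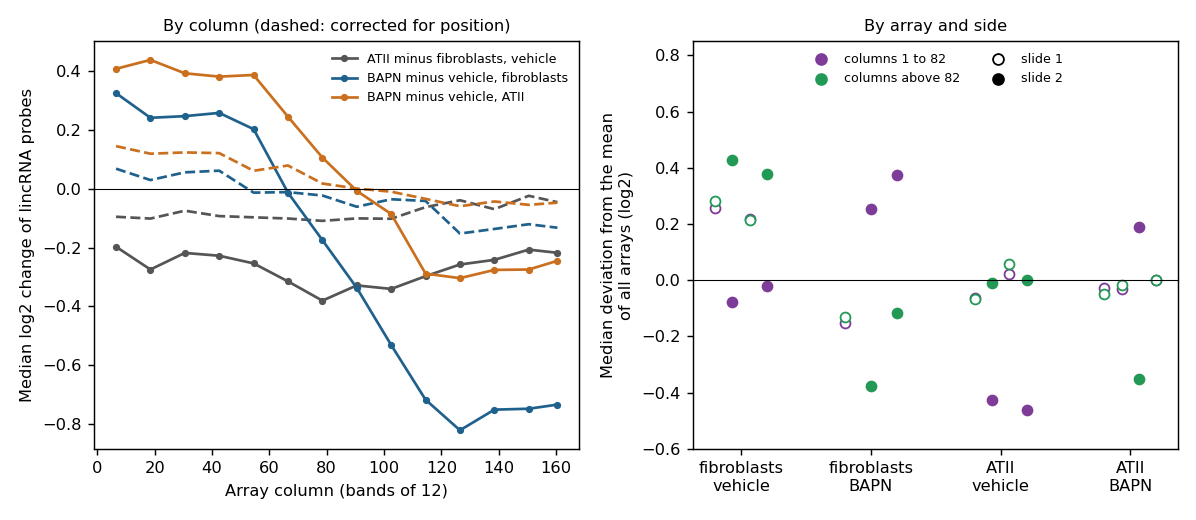
Left, median log2 difference of tested lincRNA probes (vertical axis) by band of array columns (horizontal axis) for the cell type comparison and for BAPN in each cell type; dashed lines are after correction for spot position. Right, each array's median deviation from the mean of all arrays for the left (columns 1 to 82) and right (columns 83 to 164) sides. The BAPN medians run from 0.33 in the first band to -0.82 in columns 121 to 132 in fibroblasts, and the sides part on slide 2 arrays.

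The 5 named falls with BAPN in fibroblasts lay in columns 146 to 162. The probe of chr6:131263850-131314850_F read -2.60, -2.01, -1.86 and -1.43 with vehicle and -3.84, -7.08 and -5.24 with BAPN. Every BAPN array was below every vehicle array, and BAPN replicate 1, the slide 1 array, was the highest of the 3. Of the BAPN arrays 1 was well above background. The difference was -3.41 ± 0.86 (SE, limma adjusted p 0.0224), -1.60 on slide 1 and -4.44 on slide 2. In the ATII cells the same probe read -6.24 with BAPN on the slide 2 array (replicate 4) and -2.13, -2.93 and -2.70 on the slide 1 arrays. The probes of chr7:88668948-88678046_R (-3.11), chr2:170029045-170034220_F (-3.07) and chr3:84609788-84618062_R (-3.06) were above background on 1, 2 and 1 of the 3 BAPN arrays, and that of chr15:79764481-79809909_R on none, at least 5.20-fold lower. For chr3:84609788-84618062_R the difference was -0.35 on slide 1 and -4.52 on slide 2, and 2 of its 7 tested probes passed. In chr2:170029045-170034220_F 4 of 4 tested probes were lower.

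The 5 named rises had no measured order, since no vehicle fibroblast array was well above background for 4 of the probes. These were at least 3.16-fold (chr4:35106125-35127700_F), 3.11-fold (chr8:90000619-90061169_F), 2.57-fold (chr13:28490070-28492645_R) and 1.58-fold (chr7:71231097-71233680_R) higher. The probe of chr17:84895250-84908450_R, above background on 1 of the 4 vehicle arrays, differed by 2.03. In the first, the BAPN arrays read -0.24, -5.65 and -4.94 against -6.81, -7.40, -6.72 and -7.08 with vehicle, so that replicate 1 stood far above the other BAPN arrays. The probe of chr8:90000619-90061169_F read -4.19, -3.80 and -2.91 with BAPN and -5.64, -7.17, -7.73 and -7.42 with vehicle (limma adjusted p 0.00582). None of the region's other probes passed, with differences down to -1.19. Each of these 5 regions had 1 probe past the test.

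HOTAIR was among the 4 named lincRNA probes of 36 tested that passed with BAPN in fibroblasts. This share is near the 12.5% of all probes tested that passed. Its detected probe, in array column 146, read 0.09, 0.28, 0.15 and 0.25 with vehicle and -0.59, -2.09 and -1.98 with BAPN, without overlap. The difference was -1.75 ± 0.45 (SE, limma adjusted p 0.0245), and with the slides taken apart it was -0.71 (slide 1) and -2.30 (slide 2). The correction for spot position left it at -1.68 (limma adjusted p 0.0426). In ATII cells the probe read -0.07, -0.03, 0.25 and -0.32 with vehicle and -0.05, -0.32, -2.11 and -0.18 with BAPN, and the low value was again the slide 2 array. NRON, in column 160, had a difference of -1.04 ± 0.24 (SE, limma adjusted p 0.0166) at 1 of its 2 tested probes and -0.05 at the other. KCNQ1ot1 (-0.74) and BRN1-A (-0.78) passed with 1 probe each, at limma adjusted p of 0.0492 and 0.0490, and after the position correction NRON, KCNQ1ot1 and BRN1-A had adjusted p of 0.0547, 0.0759 and 0.748. The probes of NEAT1, NEAT2, H19, TUG1 and XIST did not pass, with differences from -0.75 to 0.49. None of the 20 lncRNA genes tested outside the lincRNA set passed.

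In ATII cells no lincRNA probe passed for BAPN against vehicle. Of 9449 tested, limma called 0 at an adjusted p under 0.05 (0 of all 38559 probes, 0%), with 1312 at an unadjusted p under 0.05 and a smallest adjusted p of 0.439. A fit on slide 2 alone, with 1 BAPN array, called 2660. The 95% interval of the difference lay within 2-fold in both directions for 52.9% of the tested lincRNA probes, compared with 40.2% in fibroblasts. By slide and side, the median difference was 0.73 and -0.59 for left and right on slide 2 and -0.03 and -0.07 on slide 1. Among the probes with the smallest p, that of chr1:173468300-173489200_R read -1.08, -0.94, -0.96 and -1.10 with vehicle and -0.30, -0.35, 0.18 and 0.10 with BAPN, a difference of 0.93 ± 0.19 (SE, limma adjusted p 0.439). The groups did not overlap at this probe, nor at that of chr9:96635508-96654148_R, which read -3.39, -3.35, -3.51 and -3.45 with vehicle and -3.81, -3.84, -4.24 and -3.87 with BAPN. The difference there was -0.51 ± 0.11 (SE). The other 8 named by the same rule had differences from -1.13 to 0.95, and H19 had -0.83 to -0.54 over its 5 probes, none of which passed.

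The difference between the BAPN effects, ATII minus fibroblasts, passed at 0 of 10577 lincRNA probes in limma (0 of all 41163, 0%), with 1676 at an unadjusted p under 0.05 and a smallest adjusted p of 0.169. The 95% interval lay within 2-fold for 23.0% of the lincRNA probes, so that this comparison was less precise than either effect. The 3 smallest p-values belonged to chr15:101088974-101089576_R (0.98 ± 0.16, SE), chr7:99879368-99889978_F (2.07 ± 0.34, SE) and chr4:40720362-40729687_F (1.03 ± 0.17, SE). In the first of these, BAPN fibroblasts read -3.60, -3.37 and -3.41 against -2.70, -2.57, -2.73 and -2.49 with vehicle, and the ATII arrays lay between -2.72 and -2.31 in both groups. Leaving out ATII BAPN replicate 4 gave 292 higher and 4 lower probes.

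Some lincRNA probes held nearly the same level on every array. Over the 5968 probes above background on all 15 arrays, the range from the lowest to the highest array had a median of 1.49 and ran from 0.26 to 10.6 on the log2 scale. The narrowest, chr14:77006215-77063293_R, read 6.04 to 6.30 over the fibroblast arrays and 6.15 to 6.29 over the ATII arrays, which overlap throughout. The next were chr13:76326228-76332632_F (0.29), chr4:136856064-136877219_R (0.32), chr2:158169020-158191295_R (0.32) and chr17:17481706-17482457_R (0.34). A narrow range at 1 probe did not extend to its region in every case: 4 of the 9 tested probes of chr2:158169020-158191295_R were lower in ATII cells with vehicle, by up to -1.12.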

How the data were processed

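Total RNA from 15 samples was hybridised to 1-colour (Cy3) Agilent arrays. Per the file headers, the scanner files were made with Agilent Feature Extraction 10.7.3.1 and name the build mm9. The values used were the deposited processed intensity per spot, background-subtracted by that software, and its flags (a deposited 0/1 value, other than a measurement) for control spots, outliers, saturation and signal well above background. The authors also deposited a table of normalized log2 values, used as an alternative. Its scaling is not given in the sources used here, its column medians were 5.96, and its columns followed the log2 scanner intensities with r from 0.9995 to 1.

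Here, outlier spots were left out, spots of a probe averaged, and log2 intensities centred on each array's 75th percentile. limma 3.58.1 (R 4.3.3) fitted 1 mean per group over all 15 arrays, with Benjamini-Hochberg adjustment over all tested probes. The number of arrays, rather than counts, limits the precision. The fit was tested on simulated data. Exact permutation tests used scipy 1.17.1. Deviations of same-numbered arrays from their group means correlated with r from 0.20 to 0.364 over the 4 pairs of vehicle groups. The arrays of each pair share a slide, and arrays with different numbers were not compared. These values therefore cannot tell pairing by replicate number from a shared slide. The main fit used no pairing, and the replicate block was an alternative. In every other combination of groups at least 1 pair lay below 0.1 (r from -0.264 to 0.408). Alternatives covered scaling, background, filters, slide, replicate block, spot position and leaving out each array. The members and gene lists were chosen with earlier results of these data known. The text names, per direction, the 10 probes with the largest called change between cell types (5 for BAPN, filled by smallest p), 1 per region, non-overlapping and detected in the higher group, the 3 smallest p for the difference, and the 5 narrowest ranges. Fibroblast BAPN replicate 3 was not analysed here; ATII BAPN 5 names the array labelled a replacement, which carries no replicate number.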

Additional observations from a re-analysis of the deposited data

Results flagged for a closer look

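In groups of 4 arrays, a value was set apart where its gap to the nearest other array exceeded Dixon's 95% critical value as a share of the group's range. This held for 19 of 252 groups of 4 examined (7.54%), where chance gives about 1 in 20. All values are normalized log2 levels.

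On the vehicle fibroblast array of replicate 4, chr19:16078625-16110246_R read 0.13 while the other 3 arrays lay between -0.56 and -0.45. On the same array a BRN1-A probe read -3.10 (others -2.82 to -2.80), a PINC probe -4.98 (others -4.31 to -4.19) and a TUG1 probe -1.49 (others -0.79 to -0.68). On the array of replicate 3 an NRON probe read -1.49 (others -1.22 to -1.17).

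Among the vehicle ATII arrays, replicate 3 read -7.23 at chr1:175653557-175671940_R (others -6.55 to -6.42) and -3.28 at chr7:88668948-88678046_R (others -3.57 to -3.52). Replicate 4 read -5.38 at chrX:65756325-65757543_F (others -6.23 to -6.12).

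Among the BAPN ATII arrays, replicate 1 was the lowest at all 3 NEAT2 probes, with -0.45 (others 0.83 to 0.95), -0.89 (others 0.25 to 0.47) and -0.40 (others 0.79 to 0.88), and read -7.46 at chr19:4994325-4994537_R (others -5.90 to -5.64). Replicate 4, the group's array on slide 2, read -2.11 at HOTAIR (others -0.32 to -0.05), -7.02 at chr3:84609788-84618062_R (others -3.65 to -3.30) and -4.24 at chr9:96635508-96654148_R (others -3.87 to -3.81). It was the highest at chr7:69117827-69127242_R with -6.52 (others -7.63 to -7.54) and at a KCNQ1ot1 probe with 0.12 (others -0.15 to -0.13). Replicate 3 read -0.94 at a BRN1-A probe (others -5.52 to -4.81). The array labelled as a replacement read -7.48 at chr1:92412246-92423471_F (others -6.98 to -6.92).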

How the results depend on the processing

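The 2010 calls between cell types with vehicle became 977 at a further 2-fold threshold, 705 with the brightest probe of each region, 1296 and 1187 on slide 1 and slide 2 alone, 948 and 1060 in the left and right columns alone, and 1830 with the replicate number as a block. The 1960 calls with BAPN became 965, 737 (brightest probe), 484 (slide 2), 701 (left columns) and 1318 (replicate block). For BAPN in fibroblasts the 1833 calls became 1143, 984, 125 (slide 1), 3363 (slide 2), 735 (position correction by level class), 0 (left columns) and 726 (replicate block). For BAPN in ATII cells the count was 2660 on slide 2 alone, and for the difference of effects 28 on slide 1 alone. The left or right columns alone and a single region probe test fewer probes, and a slide alone uses fewer arrays; beyond that the cause was not tested. Among the values of single probes, the replicate block ended the call of 3 between cell types with vehicle, given beside them, and of 6 of the 10 named for BAPN in fibroblasts. For the latter comparison same-numbered arrays correlated with r of -0.027, 0.288 and 0.052. Whether the numbers pair those arrays cannot be told from these values.

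Leaving out each array gave 1661 to 1935 and 1480 to 3000 calls between cell types with vehicle and BAPN, 524 to 1925 for BAPN in fibroblasts, 0 to 0 in ATII cells and 0 to 296 for the difference. Named lncRNA genes past the test numbered 11 to 14. The detected share differed by -3.03 to -0.11 points between cell types, -0.18 to 2.77 with BAPN in fibroblasts and -2.38 to 0.56 in ATII cells. The share of regions whose probes lay on 1 side was 65.6%, or 72.4% with probes detected on every vehicle array. The share of pairs with the same direction, where region and nearest gene both passed, was 68.2%, or 78.9% within 10 kb. Of 1604 values of single probes between cell types under the alternatives, 1487 kept their state, called or not called, and of 193 for BAPN in fibroblasts 131 did. Probes past the threshold in neither setting count as kept, and over all comparisons 34 such values changed sign. No called value changed sign.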
